A study of Mus musculus with 48 samples.

Results

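Collagens are the proteins of the extracellular matrix whose chains carry glycine at regular steps along the helix, which lets them wind into a triple helix. Fibrillar collagens (types I, II, III, V, XI, XXIV and XXVII) assemble into the cable-like fibrils of the submucosa and lamina propria, type IV collagen forms the sheet-like network of basement membranes under the epithelium and around smooth muscle, vessels and nerves, and the other types decorate fibrils, form beaded filaments or short-chain networks, or span the cell membrane. In the gut wall most of them are made by fibroblasts, smooth muscle and vessel cells rather than by the epithelium.

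The collagen genes described here are all protein-coding genes of the GENCODE vM21 annotation whose symbol is Col, a number, the letter a and a number. They are 44 of the 21897 protein-coding genes counted, 11 fibrillar, 6 of type IV (basement membrane) and 27 others. The others are 6 chains of type VI (beaded filaments), 9 fibril-associated chains, 3 short-chain network chains, 2 multiplexins, 4 transmembrane chains and 3 remaining ones. The rule reads symbols only, not measured values, but earlier results of these data were known when it was chosen.

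RNA was sequenced from colon tissue of 48 male mice, 24 Bmal1fl/fl controls and 24 littermates with Bmal1iec-/-. The latter are Bmal1fl/fl mice carrying Villin-Cre, which deletes the clock gene Bmal1 in intestinal epithelial cells. Both groups therefore carry the floxed allele, and all other cells of the colon keep Bmal1. In each genotype 4 mice were sampled at each of 6 circadian times 4 h apart on the second day in constant darkness (CT1, CT5 and CT9 in the circadian day, CT13, CT17 and CT21 in the night), at 18 to 20 weeks of age on a C57BL/6J background, singly housed with a running wheel and fed ad libitum.

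A library held 3144997 to 4785844 counted reads, and the collagen genes took 0.0689% to 0.295% of them. Levels are given as CPM, the reads of a gene scaled to an equal effective library size, which is the total count times a TMM factor (0.871 to 1.03 over the mice). Arntl, the gene of BMAL1, swung in controls from 6.91 ± 2.30 CPM at CT9 to 67.5 ± 4.47 at CT1 (mean ± SD, n = 4 mice), while the group means of Bmal1iec-/- mice lay between 29.5 and 36.1 CPM. Counts over the whole gene do not show whether the floxed part was lost. Its target Nr1d1 was lower in Bmal1iec-/- mice at every time, with a log2 fold change of -1.57 ± 0.13 (SE). The 8 epithelial markers checked and the 8 smooth muscle and 8 fibroblast markers were all detected, so each library held mucosa and wall. One Bmal1iec-/- library of CT1 (mouse SV385) stood apart: its smooth muscle markers summed to 969 CPM against 3412 to 6081 in 46 other mice, its epithelial markers to 27777 CPM against 13413 to 20975, and its collagen genes to 793 CPM against 1383 to 2921. A second library of that group (SV384) also had more epithelial marker RNA than those 46 mice, 22197 CPM, but collagen at 2503 CPM. Where both were run, results are given with these 2 libraries (48 mice) and without them (46 mice). The sample labels do not mark these 2 libraries. The authors' principal component analysis used 46 colon samples, and whether it left out the same 2 is not known.

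The repeat that defines the family can be read from the coding sequences. In the 11 fibrillar chains the longest stretch with a glycine codon in each triplet of codons ran over 216 to 344 triplets, with a median of 338. In the 6 type IV chains it ran over 39 to 66 triplets, since their helix is broken at many places, and in the 27 others over 23 to 113. The stretches below show the regular spacing of a fibrillar chain, the breaks of a type IV chain and the short-chain collagen whose RNA changed most between genotypes. Each is read 5′ to 3′ along the coding strand from GENCODE vM21 transcripts (build GRCm38), with every glycine codon in capitals.
Col1a1, codons 168 to 197, in 3 exons within chr11:94939451-94939939, plus strand: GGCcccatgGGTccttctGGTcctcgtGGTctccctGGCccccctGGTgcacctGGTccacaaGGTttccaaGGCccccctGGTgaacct
Col4a1, codons 148 to 183, in 2 exons within chr8:11244489-11245084, minus strand: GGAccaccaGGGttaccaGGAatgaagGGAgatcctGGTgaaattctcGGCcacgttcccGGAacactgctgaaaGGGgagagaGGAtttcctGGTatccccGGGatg
Col8a1, codons 352 to 381, in 1 exon at chr16:57628003-57628092, minus strand: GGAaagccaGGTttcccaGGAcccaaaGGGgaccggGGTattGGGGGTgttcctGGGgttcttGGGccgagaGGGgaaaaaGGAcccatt
The Col1a1 stretch holds 10 glycine codons in 30, each 3 codons from the next. In the Col4a1 stretch the spacing breaks after the fifth glycine codon. The Col8a1 stretch has 11 in 30 and starts an unbroken run of 61 triplets. Each triplet keeps its glycine codon, and an extra glycine codon in the middle makes 2 shorter steps without a break.

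Most of the collagen RNA of the colon came from few genes. Levels are compared between genes as RPKM, which is CPM divided by the exon length in kilobases. In controls the highest fibrillar chains were Col3a1, the single chain of type III collagen of distensible tissues, at 48.8 ± 12.04 RPKM (SD, n = 24), then Col1a2 at 16.9 ± 2.84 and Col1a1 at 14.5 ± 2.98, the 2 chains of type I collagen. Among type IV chains Col4a1 reached 25.3 ± 4.37 RPKM and Col4a2 17.8 ± 3.17, the pair found in nearly all basement membranes. Col4a5 followed at 5.23 ± 1.09 and Col4a6 at 1.61 ± 0.36, whereas Col4a3 and Col4a4, known from kidney glomeruli, lay at 0.19 ± 0.08 and 0.19 ± 0.07. Among the others the chains of type VI collagen led, with Col6a1 at 44.2 ± 6.83 RPKM, Col6a2 at 16.5 ± 2.43 and Col6a3 at 9.51 ± 2.21. The SD ranges of Col3a1 and Col6a1 overlapped, as did those of Col1a2, Col4a2 and Col6a2. These SDs are over mice, and differences between genes within a mouse were not tested.

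These orders depend in part on which exons count. With the length of 1 coding transcript in place of all annotated exons, an alternative chosen after seeing the data, Col3a1 stood at 86.1, Col1a2 at 39.2 and Col6a2 at 34.8 RPKM, while the other 6 genes named above as leading their class moved by less than 1 SD. Within a mouse the ratio of Col1a1 to Col1a2 per length was 0.86 ± 0.09 in controls and 0.86 ± 0.09 in Bmal1iec-/- mice (SD, n = 24 each) over all exons, but 0.41 ± 0.04 in both over the coding transcript, so the ratio between the genes depends on the length used, and under either length the genotypes differed by less than their spread. The ratio of Col4a1 to Col4a2 was 1.43 ± 0.14 and 1.42 ± 0.16 in the same order. The ratio of Col5a1 to Col5a2 was 0.75 ± 0.09 in controls and 0.84 ± 0.09 in Bmal1iec-/- mice, a shift of about the SD that was not tested.

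**Figure D1:**
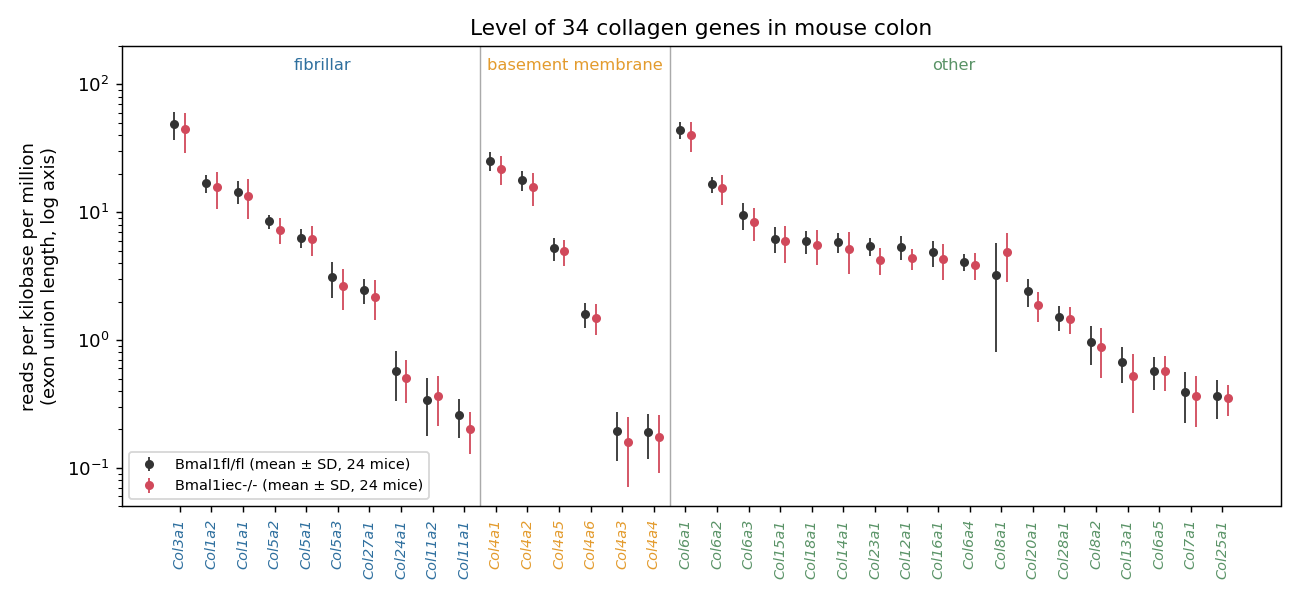
Level of the 34 collagen genes with counts in all 48 mice, in RPKM over all exons (log axis), for Bmal1fl/fl (black) and Bmal1iec-/- (red) mice. Points are means and bars SDs over 24 mice of all circadian times, and genes are ordered within each class by the control mean; Col3a1, Col6a1 and Col4a1 lead the classes, and Col8a1 has the widest bar in controls.

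Summed over genes, fibrillar collagens took 45.3% ± 1.98 of all collagen CPM in controls, type IV 16.6% ± 1.05 and the others 38.0% ± 1.67 (SD, n = 24). The shares were 45.3% ± 2.39, 16.2% ± 0.91 and 38.5% ± 2.08 in Bmal1iec-/- mice, so the make-up of the collagen RNA differed between genotypes by less than the spread between mice in each class. The summed level of all members was 2159 ± 314 CPM in controls and 1965 ± 513 CPM in Bmal1iec-/- mice, 1994 ± 456 without the pair of CT1 libraries (n = 22).

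Of the 44 genes, 10 were too low in counts to be tested: Col2a1, the cartilage collagen, had 2 reads over all mice, Col19a1 5, Col10a1 9, Col26a1 25, Col17a1 38, Col6a6 47, Col9a1 54, Col9a3 147, Col22a1 178 and Col9a2 187. A count of 0 in a library allows up to 0.631 to 0.968 CPM, so a count of 0 does not show absence. These 10 genes were left out of the main genotype test described next. The other 34 had counts in every mouse.

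To ask how epithelial loss of Bmal1 changed collagen RNA, genotypes were compared with circadian time in the model (edgeR quasi-likelihood test, Benjamini-Hochberg adjustment over 14259 genes). Of all genes tested 12.1% passed an adjusted p of 0.05, 6.1% higher and 5.98% lower in Bmal1iec-/- mice. Of the 34 collagen genes tested 5 passed, 1 higher and 4 lower, a share of 14.7% that is near that of all genes. Col8a1 rose, and Col23a1, Col20a1, Col12a1 and Col5a2 fell. Only Col8a1 also passed a fold change of 1.5, as did 1.3% of all genes.

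Col8a1 encodes the alpha1 chain of type VIII collagen, a short-chain network collagen of vessel walls and subendothelial matrix. Over all times its level ran from 4.55 through a median of 23.1 to 62.8 CPM in controls and from 15.8 through 36.3 to 68.5 CPM in Bmal1iec-/- mice. The groups overlapped widely, since the gene varied strongly with time in controls. With circadian time in the model it was higher in Bmal1iec-/- mice by 0.78 ± 0.16 on the log2 scale (SE), or 1.72-fold (edgeR adjusted p = 0.00057). In 46 mice the value was 0.89 (adjusted p = 2.3e-05). Both values are averages over the 6 times, and the difference was not the same at each time, as given below. The call was lost when time was left out of the model (0.59, adjusted p = 0.14).

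Col23a1, a transmembrane collagen, ran from 24.96 through 29.4 to 46.4 CPM in controls and from 5.77 through 24.9 to 31.9 CPM in Bmal1iec-/- mice, with 17.7 as the lowest value outside the pair. Most Bmal1iec-/- mice lay in the lower part of the control range or under it. The log2 fold change was -0.37 ± 0.08 (edgeR adjusted p = 0.0012, and 0.00056 in 46 mice).

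Col20a1 and Col12a1 encode fibril-associated collagens, which sit on the surface of fibrils. Col20a1 ran from 7.36 through 12.7 to 17.8 CPM in controls and from 5.16 through 9.96 to 15.2 CPM in Bmal1iec-/- mice. Col12a1 ran from 58.9 through 79.3 to 132 CPM and from 33.7 through 67.0 to 94.8 CPM. In both genes the ranges overlapped and the medians were lower in Bmal1iec-/- mice. Their log2 fold changes were -0.35 ± 0.10 (edgeR adjusted p = 0.013) and -0.29 ± 0.08 (adjusted p = 0.0071). Both stayed called without any single mouse and in 46 mice (adjusted p = 0.030 and 0.014). Over the alternative fits the call of Col20a1 was kept in 12 and lost in 4. That of Col12a1 was kept in 11 and lost in 5. For both genes the fit with smooth muscle markers, given below, was among those that lost the call.

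Col5a2, a chain of type V collagen that nucleates fibrils, ran from 58.0 through 82.1 to 97.2 CPM in controls and from 24.9 through 72.4 to 98.0 CPM in Bmal1iec-/- mice. Its log2 fold change was -0.22 ± 0.07 (edgeR adjusted p = 0.039), and the adjusted p lay between 0.021 and 0.062 when 1 mouse was left out. With 25 of the 48 mice left out in turn the call was lost. Its partner Col5a1 had a log2 fold change of -0.05 ± 0.09 (adjusted p = 0.75).

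The most abundant chains did not pass the test. Col3a1 ran from 288 through 501 to 684 CPM in controls and from 193 through 411 to 735 CPM in Bmal1iec-/- mice, with a log2 fold change of -0.14 ± 0.08 (edgeR adjusted p = 0.28). Col1a2 and Col1a1 had log2 fold changes of -0.13 ± 0.09 (adjusted p = 0.39) and -0.13 ± 0.10 (adjusted p = 0.46). Col6a1, Col6a2 and Col6a3 had -0.15 ± 0.09, -0.10 ± 0.08 and -0.19 ± 0.09 (adjusted p = 0.25, 0.44 and 0.16). All 6 values were below 0 and larger than their SE, and a p above the threshold does not show equal levels.

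Of the 6 type IV chains none passed in this fit of 48 mice. Col4a1 missed the threshold narrowly: it ran from 111 through 186 to 255 CPM in controls and from 81.7 through 159 to 231 CPM in Bmal1iec-/- mice, with a log2 fold change of -0.22 ± 0.08 (edgeR adjusted p = 0.054). It passed in 46 mice (-0.20, adjusted p = 0.043) and, with all 48, in the DESeq2 Wald test (-0.21, adjusted p = 0.046) and in edgeR without the low-count filter (-0.21, adjusted p = 0.032), each of which called 6 collagen genes. Col4a2, which starts beside Col4a1 on the other strand, had -0.20 ± 0.08 (adjusted p = 0.10), and Col4a5 -0.07 ± 0.09 (adjusted p = 0.64).

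**Figure D2:**
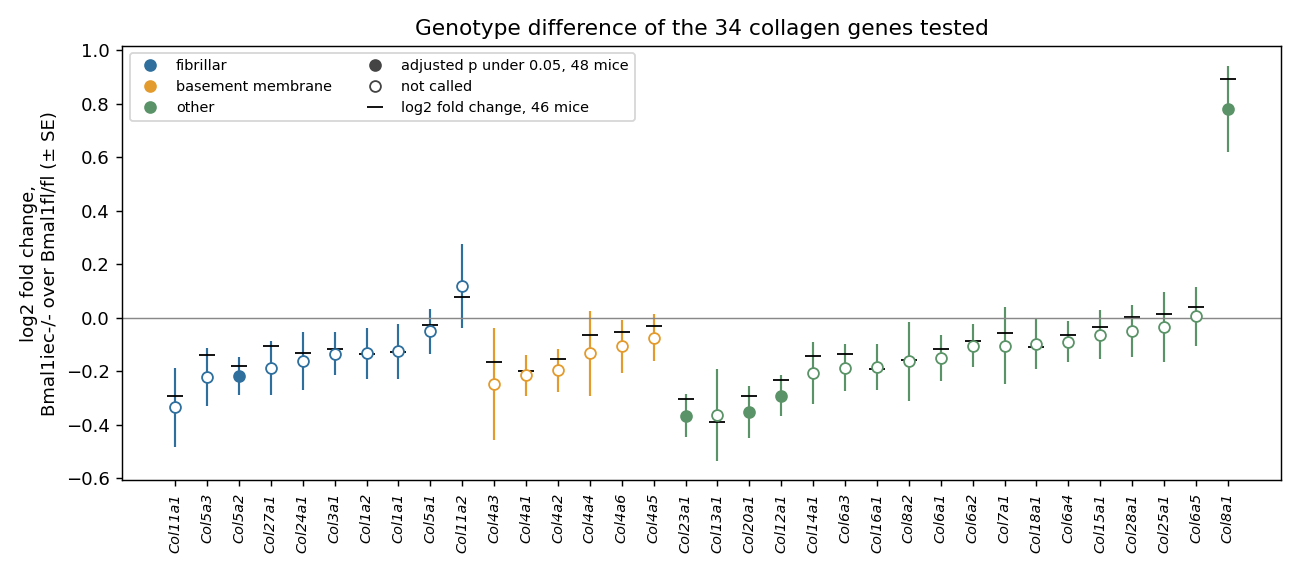
log2 fold change of Bmal1iec-/- over Bmal1fl/fl mice for the 34 collagen genes tested, with SE bars (edgeR, circadian time in the model, 48 mice), ordered within fibrillar (blue), basement membrane (orange) and other (green) collagens. Filled points passed an adjusted p of 0.05 and short black lines give the value in 46 mice; 31 of 34 points lie below 0, and Col8a1 lies far above the rest at 0.78.

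The medians of the 3 classes were close to each other. The median log2 fold change was -0.15 for the 10 fibrillar genes tested, -0.17 for the 6 type IV genes and -0.13 for the 18 others, beside -0.0024 for all genes. Of the 34 genes 31 had values below 0 (91.2%), against 50.8% of all genes, and 29 of 34 in 46 mice, where the class medians were -0.13, -0.11 and -0.12. With DESeq2 size factors 31 genes were below 0, and with library size alone 32. The genes of one tissue move together, so these counts are a description of the members and carry no test.

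Markers of the collagen-making cells moved with these values. All 8 smooth muscle markers were below 0, with a median log2 fold change of -0.23 and 1 called (Cnn1, a calponin of smooth muscle), as were all 8 fibroblast markers (median -0.22, Dcn called) and all 6 endothelial markers (median -0.23, with Pecam1, Kdr and Eng called). The pericyte list (4 markers, median -0.19) and the enteric glia list (4 markers, median -0.21, S100b called) lay below 0 throughout. Of the 8 epithelial markers 7 were above 0, with Cdh1, Krt8, Krt18 and Krt19 called (median 0.09). In 46 mice Krt19 (adjusted p = 0.092) and Ptprc of the leukocyte list (0.054) were no longer called, and the epithelial marker Epcam was lower (-0.10, adjusted p = 0.0099). Vil1, Krt20 and Car1 also had values below 0 there, which left 4 of the 8 epithelial markers above 0. Rgs5 of the pericyte list (-0.17, adjusted p = 0.00015), Myh11 of smooth muscle (-0.16, adjusted p = 0.043) and Dpt of fibroblasts (-0.18, adjusted p = 0.020) were called lower in 46 mice and not in 48. Of the leukocyte list 4 of 5 were below 0 (median -0.14, Ptprc called), and of the lists with few tested markers mesothelium (3 tested) had a median of -0.41, adipocyte (3) -1.20, skeletal muscle (2) -0.04, squamous epithelium (1) 0.47 and pancreas (1) 0.10.

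In sums, smooth muscle markers ran from 3861 to 6081 CPM in controls and from 969 to 5609 in Bmal1iec-/- mice (3412 to 5609 in 46 mice), fibroblast markers from 702 to 1097 and from 194 to 1023 CPM (558 to 1023), endothelial markers from 157 to 210 and from 61.1 to 196 CPM (127 to 196), and epithelial markers from 13413 to 20975 and from 14659 to 27777 CPM (14659 to 19987). None of these markers was at 0 in every mouse. In RNA from colon tissue of mixed cells, fewer cells of a type and less RNA per cell cannot be told apart.

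When the mean level of the smooth muscle markers was added to the model, the median of the tested collagen genes was 0.0043, 15 of 34 were below 0, and Col8a1 (1.01) and Col23a1 (-0.21) were the members called. With fibroblast markers the median was 0.02, 16 were below 0, and Col8a1 (1.003), Col20a1 and Col23a1 were called. With epithelial markers the median stayed at -0.11 with 28 below 0, and the same 3 genes were called. The fall of Col12a1 and Col5a2 thus did not pass under any of these 3 models. Col3a1, Col1a1, Col1a2, Col6a1, Col6a2, Col6a3, Col5a1 and Col4a5 changed sign under the first and the second. Dcn and Lum of the fibroblast list are also among the fibril organisers listed below, so that covariate is not separate from the matrix genes.

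**Figure D3:**
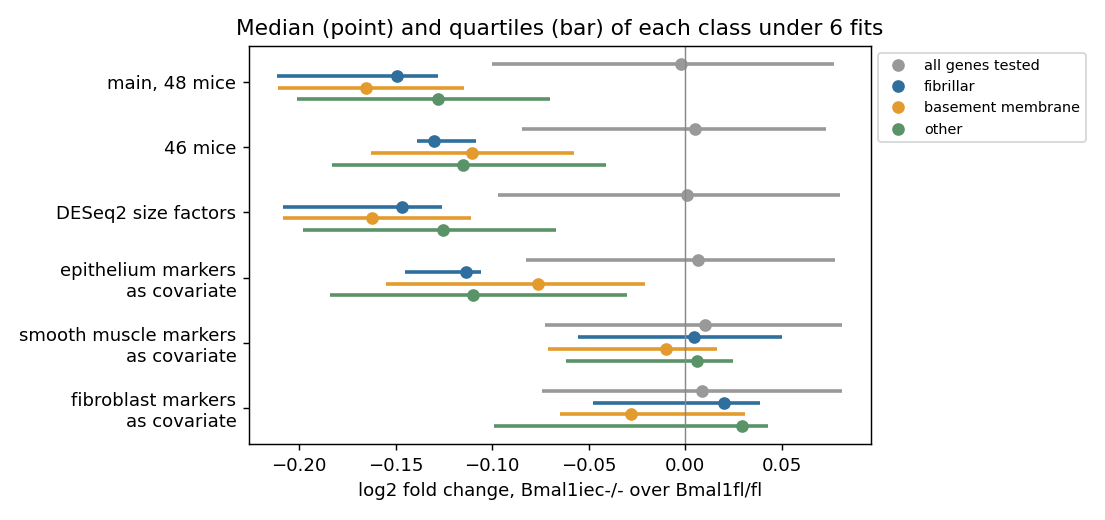
Median (point) and quartiles (bar) of the log2 fold change, Bmal1iec-/- over Bmal1fl/fl, for all genes tested and for each collagen class, under 6 fits of the same counts. The class medians lie between -0.17 and -0.08 in the upper 4 fits and between -0.03 and 0.03 once the smooth muscle or fibroblast marker level is in the model.

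In the circadian day and night taken apart (edgeR, 13866 genes), 7.33% of all genes differed between genotypes in the day and 3.48% in the night, and the difference itself passed for 0.144%. Of 32 collagen genes tested 2 passed in the day, Col12a1 (log2 fold change -0.41, adjusted p = 0.019) and Col23a1 (-0.44, adjusted p = 0.024). Neither passed in 46 mice (-0.33 and -0.31, adjusted p = 0.073 and 0.074), where no collagen gene did. In the night Col8a1 rose (1.55, adjusted p = 1.6e-06, 2.92-fold) and Col20a1 fell (-0.51, adjusted p = 0.016), and both calls held in 46 mice. Col8a1 did not pass in the day (0.22, adjusted p = 0.49, and 0.33, adjusted p = 0.40 in 46 mice).

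Col8a1 was the member whose genotype difference itself depended on time. At CT1 the control mice had 25.4, 55.5, 61.6 and 62.8 CPM and the Bmal1iec-/- mice 24.9, 36.5, 48.4 and 66.8. At CT5 controls had 28.5, 36.6, 48.5 and 51.6 CPM and Bmal1iec-/- mice 43.1, 54.7, 56.3 and 68.5. At CT9 controls had 26.7, 28.2, 31.2 and 40.0 CPM and Bmal1iec-/- mice 30.9, 47.8, 48.2 and 51.8. At these 3 day times the groups overlapped.

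At CT13 controls had 5.32, 7.68, 7.93 and 9.79 CPM, while Bmal1iec-/- mice had 22.2, 31.3, 36.1 and 60.2. At CT17 controls had 4.55, 5.50, 8.61 and 9.23 CPM and Bmal1iec-/- mice 15.8, 18.4, 19.5 and 32.9. At CT21 controls had 8.89, 13.04, 13.9 and 20.9 CPM and Bmal1iec-/- mice 21.6, 21.7, 22.3 and 39.4. At each of the 3 night times every Bmal1iec-/- mouse lay above every control of that time, at CT21 by a small gap.

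The group means of Col8a1 spanned 7.36-fold in controls, from 6.97 ± 2.30 CPM at CT17 to 51.3 ± 17.6 at CT1, and 2.57-fold in Bmal1iec-/- mice, from 21.6 ± 7.68 at CT17 to 55.6 ± 10.4 at CT5 (SD, n = 4). A fitted 24 h cosine had a peak-to-trough difference of 3.08 on the log2 scale in controls and 1.26 in Bmal1iec-/- mice. The change of rhythm between genotypes passed (edgeR, 2 df, adjusted p = 0.0015, and 0.0067 in 46 mice), and without any single mouse the adjusted p stayed between 0.00042 and 0.0049. The difference between day and night effects was 1.32 on the log2 scale (adjusted p = 0.040), but 1.219 with an adjusted p of 0.091 in 46 mice, and it was lost with 18 of the 48 mice left out in turn. Col8a1 was the only 1 of 33 collagen genes tested whose rhythm changed, beside 1.98% of all genes.

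Its nearest relative, Col8a2, which encodes the other chain of type VIII collagen, was far lower, at 4.35 ± 1.48 CPM in controls and 3.95 ± 1.67 in Bmal1iec-/- mice (SD, n = 24), with a log2 fold change of -0.16 ± 0.15 (edgeR adjusted p = 0.51). Its rhythm passed in neither genotype (JTK_cycle adjusted p = 0.16 and 1). The remaining short-chain gene, Col10a1 of hypertrophic cartilage, had 9 reads in all.

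**Figure D4:**
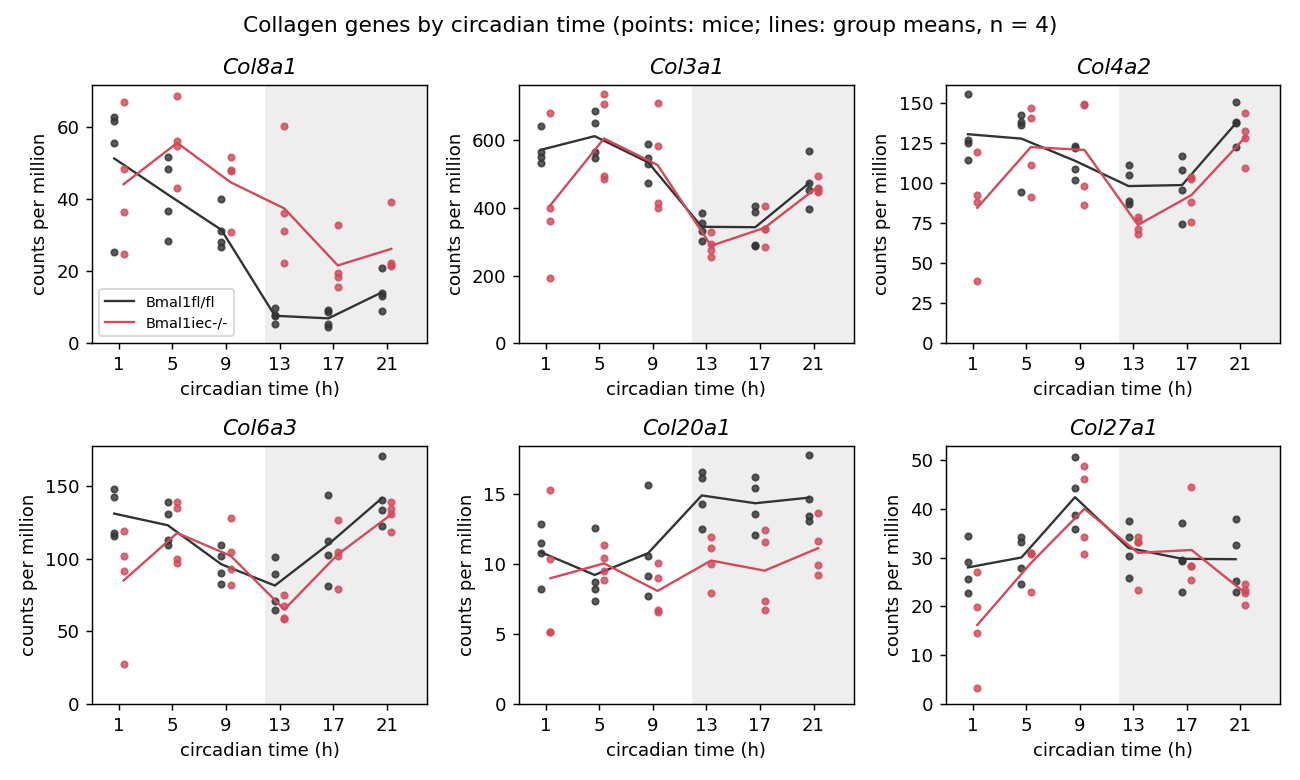
CPM of 6 collagen genes by circadian time, 1 point per mouse and lines through the means of 4 mice, for Bmal1fl/fl (black) and Bmal1iec-/- (red); grey marks the circadian night. Col8a1 falls to means of 6.97 to 14.2 CPM at night in controls and 21.6 to 37.5 CPM in Bmal1iec-/- mice, whereas Col3a1 follows a like course in both, and the lowest red Col3a1 point at CT1 is mouse SV385.

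Rhythms within each genotype were tested with JTK_cycle, a rank test for a 24 h cycle, over 32527 genes. In controls 24.1% of all genes passed, and 50.4% of the genes that also passed the low-count filter. Of the 44 collagen genes 15 passed (34.1%), which is 44.1% of the 34 above the filter and so no larger than the share of all such genes. They were 6 fibrillar genes (Col3a1, Col5a2, Col5a3, Col11a2, Col24a1 and Col27a1), 2 of type IV (Col4a2 and Col4a4) and 7 others (Col6a3, Col6a5, Col7a1, Col8a1, Col12a1, Col15a1 and Col20a1). With Benjamini-Hochberg adjustment over all genes on top, 9 remained: Col3a1, Col5a3, Col24a1, Col4a2, Col6a3, Col7a1, Col8a1, Col15a1 and Col20a1. Col4a1, the partner of Col4a2, narrowly missed in controls (JTK_cycle adjusted p = 0.058). It passed there in edgeR tests of a 24 h cosine (adjusted p = 0.026) and of any difference among the 6 times (adjusted p = 0.036).

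The phases fell into 3 ranges. Of the 15 genes 10 peaked from 0 h to 6 h, as did 39.6% of all rhythmic genes above the filter, 2 from 8 h to 12 h and 3 from 14 h to 20 h. Early peaks were those of Col3a1 (4 h), Col15a1 (4 h), Col8a1 (4 h), Col5a3 (2 h), Col4a2 (2 h) and Col6a3 (0 h). Col24a1 and Col27a1, 2 fibrillar chains with shorter helices, peaked at 10 h. Col11a2 peaked at 16 h, and Col20a1 and Col7a1, the anchoring fibril collagen under squamous epithelia, at 18 h.

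Col3a1 had the smallest p beside Col8a1 (JTK_cycle adjusted p = 2.1e-06 for each). Its means ran from 343 ± 62.8 CPM at CT17 to 611 ± 66.2 at CT5 in controls, a 1.78-fold range. Every control mouse at CT1 and CT5 had at least 531 CPM and every one at CT13 and CT17 at most 405. In the basement membrane and its surroundings, Col4a2 ranged 1.398-fold (adjusted p = 0.0045) and Col15a1, a multiplexin of vessel and muscle basement membranes, 1.62-fold (adjusted p = 8.4e-05), with Col6a3 at 1.74-fold (adjusted p = 8.4e-05) and Col5a3 at 2.08-fold (adjusted p = 8.4e-05). The type I chains Col1a1 and Col1a2, Col5a1, Col6a1 and Col6a2 did not pass (adjusted p = 0.91 for Col6a1 and 1 for the others).

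In Bmal1iec-/- mice 6 of the 44 collagen genes passed (13.6%), beside 14.2% of all genes. Above the filter 5 of 34 passed (14.7%), beside 29.6% of all such genes. The 6 genes were Col3a1 (JTK_cycle adjusted p = 0.025, peak 3 h), Col8a1 (0.00026, 6 h), Col27a1 (0.00026, 10 h), Col24a1 (0.0030, 10 h), Col23a1 (0.012, 12 h) and Col9a2 (0.0497, 12 h), the last of which did not pass the low-count filter. The first 4 had passed in controls too. The pair of CT1 libraries bore on this count. In 46 mice 10 genes passed, 29.4% of those above the filter beside 29.5% of all such genes (14.2% of all genes), and all 10 had passed in controls: Col3a1, Col5a3, Col6a3, Col6a5, Col7a1, Col8a1, Col11a2, Col15a1, Col24a1 and Col27a1. Without mouse SV385 alone 12 passed. Passing in controls and not in Bmal1iec-/- mice does not show that a rhythm differed, and of the 33 genes in the test of that difference only Col8a1 passed, the others having adjusted p of 0.44 or more (edgeR).

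**Figure D5:**
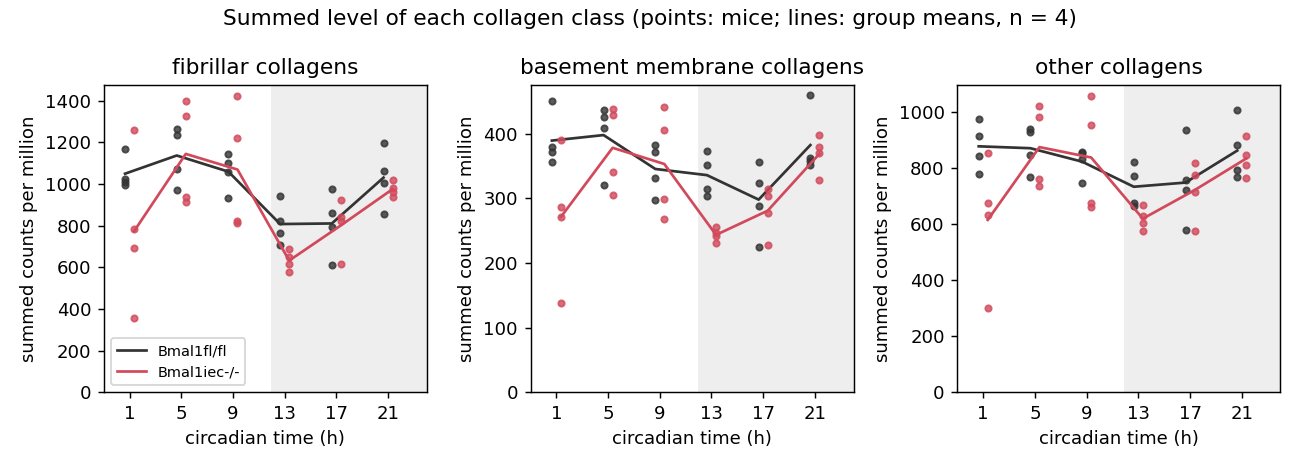
Summed CPM of fibrillar, basement membrane and other collagens by circadian time, 1 point per mouse and lines through the means of 4 mice, for Bmal1fl/fl (black) and Bmal1iec-/- (red), with the circadian night in grey. The lowest point of each panel is mouse SV385 at CT1, at 356, 138 and 300 CPM, against 577, 224 and 575 CPM as the lowest of 46 other mice.

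Chains of one protein varied together from mouse to mouse. After the mean of each genotype and time was removed, log2 CPM of the 8 chosen pairs of chains correlated over 48 mice with Pearson's r from 0.85 to 0.94 and Spearman's rho from 0.74 to 0.92. All 8 had adjusted permutation p of 1e-05 for r, the smallest that 100000 permutations within groups can give, and 4e-05 or less for rho (two-sided). The 2 chains of type I collagen gave r = 0.92, the pair Col4a1 and Col4a2 0.92, Col6a1 and Col6a2 0.94, Col6a1 and Col6a3 0.88 and Col5a1 and Col5a2 0.86. Among pairs from different proteins, Col1a1 with Col3a1, both fibrillar, gave 0.87, and across classes Col1a1 with Col4a1 gave 0.93 and Col3a1 with Col4a1 0.85. In controls alone the pairs with Col3a1 were lower, at 0.60 with Col1a1 and 0.63 with Col4a1, beside 0.76 to 0.91 for chains of one protein and 0.84 for Col1a1 with Col4a1. Without the 2 mice farthest from the median r ran from 0.75 to 0.91. Within genotypes it ran from 0.60 to 0.91 in controls and from 0.89 to 0.97 in Bmal1iec-/- mice (n = 24 each). The mice share a tissue whose content of smooth muscle and fibroblast marker RNA also varied, and its part in these values was not tested.

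Promoter sequences are shown for the pair with a shared start region and for the gene whose rhythm changed. Col4a1 and Col4a2 lie head to head on chromosome 8 and overlap by 22 bases, so the promoter windows around their starts overlap too. RefSeq windows (GRCm38.p6) were found for 35 of the 44 genes. The 5 motifs named below were searched on both strands, and capitals mark every match. In these windows the matches were of the CCAAT box and the GC box, which are common in promoters, and none overlapped another.
Col8a1, chr16:57754688-57754987, minus strand: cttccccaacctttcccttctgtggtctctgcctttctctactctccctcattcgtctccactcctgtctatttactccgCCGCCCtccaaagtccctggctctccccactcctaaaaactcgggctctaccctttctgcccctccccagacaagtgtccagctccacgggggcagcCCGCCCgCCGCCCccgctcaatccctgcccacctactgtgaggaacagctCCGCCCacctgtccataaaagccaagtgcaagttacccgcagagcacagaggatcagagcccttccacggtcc
Col4a1, chr8:11312777-11313076, minus strand: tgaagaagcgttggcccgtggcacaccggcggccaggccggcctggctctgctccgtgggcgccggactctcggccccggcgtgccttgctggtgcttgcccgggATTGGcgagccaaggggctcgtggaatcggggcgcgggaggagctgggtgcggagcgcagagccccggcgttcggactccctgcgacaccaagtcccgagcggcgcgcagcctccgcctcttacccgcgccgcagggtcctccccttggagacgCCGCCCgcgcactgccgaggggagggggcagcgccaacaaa
Col4a2, chr8:11312555-11312854, plus strand: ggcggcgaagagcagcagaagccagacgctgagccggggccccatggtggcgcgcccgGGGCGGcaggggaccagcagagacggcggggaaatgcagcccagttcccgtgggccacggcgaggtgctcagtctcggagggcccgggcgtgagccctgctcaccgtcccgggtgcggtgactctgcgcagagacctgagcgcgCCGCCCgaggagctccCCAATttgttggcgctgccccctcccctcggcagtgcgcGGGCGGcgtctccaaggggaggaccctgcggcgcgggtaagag
The Col8a1 window held 4 matches, all of the GC box. The GC box (GGGCGG) was found in 22 of the 35 genes (62.9%), beside 38.2% of all 27025 genes with a window. The CCAAT box was found in 13 (37.1% beside 41.1%). The E-box (CACGTG), bound by clock proteins, was in 0 of the 35, beside 8.09% of all genes. The half-site of nuclear receptors such as REV-ERB (AGGTCA) was in 8 (22.9% beside 18.1%). These were Col4a4, Col6a5, Col7a1, Col9a1, Col11a1, Col20a1, Col23a1 and Col24a1. The TATA box (TATAAA) was in 5 (14.3% beside 15.7%), among them Col3a1. A match is a description of the letters only.

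Of the genes that build, trim and bind collagen, 79 were listed and 69 tested, and 11 passed (15.9%, beside 12.1% of all genes), 2 higher (2.90% beside 6.1%) and 9 lower (13.04% beside 5.98%), with a median log2 fold change of -0.13. Among the 18 genes that modify and fold the chains 3 fell: P4ha2, a prolyl hydroxylase (-0.37 ± 0.09, edgeR adjusted p = 0.0025), Plod2, a lysyl hydroxylase (-0.30 ± 0.09, adjusted p = 0.016), and Mia3, which loads collagen into transport carriers (-0.12 ± 0.04, adjusted p = 0.044, but 0.12 in 46 mice). Of the 6 cross-linking genes Lox, the lysyl oxidase, fell (-0.48 ± 0.14, adjusted p = 0.021). Of the 8 fibril organisers tested Dcn, the fibril-binding decorin, fell (-0.26 ± 0.08, adjusted p = 0.033), as did Sparc, a collagen-binding matrix protein (-0.23 ± 0.07, adjusted p = 0.021). Dcn is the same gene that was counted above as a fibroblast marker.

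No gene passed among 6 tested for propeptide removal (median -0.13) and 8 for breakdown and its inhibitors (median -0.12). Of the 8 collagen receptors tested Itga1, the integrin alpha1 chain that binds type IV collagen, fell (-0.27 ± 0.08, adjusted p = 0.014), as did Ddr2, a receptor for fibrillar collagens (-0.26 ± 0.08, adjusted p = 0.036). Of the 15 basement membrane partners of type IV collagen 13 had values below 0 and 2 above, with a median of -0.13. Lama3, a laminin chain of epithelial basement membranes, rose (0.38 ± 0.10, adjusted p = 0.0073), as did Nid2, a nidogen that links laminin to type IV collagen (0.22 ± 0.08, adjusted p = 0.045). Lama4, a laminin chain of vessels, fell (-0.25 ± 0.08, adjusted p = 0.040, but 0.076 in 46 mice). In 46 mice the adjusted p of the other 9 lay below 0.05, and 3 more partner genes were called lower: Pxdn of the cross-linking list (-0.16, adjusted p = 0.037), Ogn of the fibril organisers (-0.17, adjusted p = 0.017) and Lamb3, a laminin chain (-0.21, adjusted p = 0.0058).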

How the data were processed

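Colon RNA of 48 mice was sequenced from TruSeq Stranded mRNA libraries in pairs of 150 bases. The authors trimmed reads with Trimmomatic 0.39, aligned them with STAR 2.7.5c to mm10, and deposited raw read counts per gene made with featureCounts 1.4.6 over exons, keeping a mapping quality of at least 4. Its strand setting is not given in the sources used here, so reads of overlapping genes on opposite strands may not be separated. The deposited counts were used as they are.

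Groups came from the sample labels. Genotype differences were tested with edgeR 4.0.16 (R 4.3.3; TMM scaling, filterByExpr, quasi-likelihood F test, Benjamini-Hochberg adjustment over all genes tested), with circadian time as a factor, with day or night and its interaction, or with a 24 h cosine and sine. Rhythms were tested by a JTK_cycle test written for this work (24 h period, 12 phases in steps of 2 h, exact null, Bonferroni over phases) on counts divided by size factors. Its adjusted p is per gene. Correlations used SciPy 1.17.1. Scripts were tested on simulated data. CPM were counts scaled to the effective library size, the total of 3144997 to 4785844 counts per mouse times its TMM factor (0.871 to 1.03), and intervals of low counts cover counting error only. Pairs of mice of a group differed by more than sampling noise, with a chi-square per gene of 1.93 to 14.9 over 72 pairs, so each was 1 replicate.

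Genes named with values were the members called in a test, the 3 of highest level per length in each class, the 3 uncalled members with the most counts, members of chain pairs, those too low to test, the label checks Arntl and Nr1d1, and the called genes of partner lists. Col4a3, Col4a4, Col4a6, Col8a2, the named markers, and the partner genes called in 46 mice only fall outside that rule and were named after their values were seen. The members and lists were chosen with earlier results of these data known. Alternatives were other scalings and filters, DESeq2 1.42.0, marker levels as covariates, 46 mice, and leaving out times or single mice.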

Additional observations from a re-analysis of the deposited data

Results flagged for a closer look

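In 168 sets of 4 mice tested for a mouse far from the other 3, 5 stood out, where chance flags about 1 in 20. Col12a1 had 33.7 CPM in mouse SV385 of Bmal1iec-/- CT1, against 66.1 to 67.1 in the other 3. Col8a1 had 39.4 CPM in mouse SV471 of Bmal1iec-/- CT21, against 21.6 to 22.3. Col4a2 had 94.4 CPM in mouse SV447 of Bmal1fl/fl CT5, against 136 to 142. The fibrillar collagens summed to 1170 CPM in mouse SV468 of Bmal1fl/fl CT1, against 997 to 1022, and the type IV collagens to 459 CPM in mouse SV434 of Bmal1fl/fl CT21, against 351 to 362.

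The genotype difference of Col8a1 itself differed between circadian day and night by 1.32 on the log2 scale (edgeR adjusted p = 0.040), and its rhythm changed between genotypes (edgeR adjusted p = 0.0015). The first of these was not past the threshold in 46 mice (adjusted p = 0.091), the second was (adjusted p = 0.0067).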

How the results depend on the processing

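With other scalings 5 collagen genes stayed called between genotypes. The count was 3 without circadian time in the model, 0 against a 1.5-fold change (glmTreat), 2 with smooth muscle, 3 with epithelial and 3 with fibroblast markers as covariate, and 3 without CT1, CT13 or CT17. With smooth muscle markers the log2 fold change turned above 0 for Col3a1 (0.0025), Col1a2 (0.0064), Col1a1 (0.033), Col4a5 (0.027), Col6a1 (0.0042), Col6a2 (0.026), Col6a3 (0.0099) and Col5a1 (0.092). With fibroblast markers it did for Col3a1 (0.039), Col1a2 (0.037), Col1a1 (0.030), Col4a5 (0.098), Col6a1 (0.036), Col6a2 (0.048), Col6a3 (0.024) and Col5a1 (0.12). It also did for Col4a5 with epithelial markers (0.044) and without CT1 (0.032), and for Col5a1 without CT1 (0.0048) and CT13 (0.016). None of these passed the test in either direction, and the cause was not tested. In 46 mice no collagen gene was called in the day or for the interaction (0 each), and 10 were rhythmic in Bmal1iec-/- mice. With adjustment over all genes 9 were rhythmic in controls and 2 in Bmal1iec-/- mice. Leaving out 1 mouse at a time gave 4 to 6 genes for genotype, 1 to 2 in the day (1 without mouse SV412), 2 in the night, 0 to 1 for the interaction, 1 for the change of rhythm, and 13 to 16 and 5 to 12 rhythmic genes in controls and Bmal1iec-/- mice. At 3144997 to 4785844 counts per mouse, 10 of the 44 genes were too low to test. No paired analysis was possible because each mouse has its own number and no number is shared between groups.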
